A study of Mus musculus with 12 samples.

Results

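The genes described here are 10 genes with which the liver senses iron and sets the level of hepcidin. They are the bone morphogenetic protein genes Bmp2 and Bmp6, the sensor and regulator genes Tfr2 and Tmprss6, the inhibitory SMAD genes Smad6 and Smad7, the BMP target genes Id1 and Atoh8, and the hepcidin genes Hamp and Hamp2. They were chosen by name, by matching the Ensembl identifier of each row of the count table to its GENCODE symbol, and make up 10 of the 55414 genes counted. All 10 had enough counts to be tested.

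The data are bulk RNAseq read counts from the livers of 12 female C57BL/6J mice aged 8 to 12 weeks, 3 in each of 4 groups. All mice received 2 intraperitoneal injections, the first of 0.9% NaCl or of 300 mg/kg iron(II) sulfate heptahydrate (FeSO4) dissolved in it, and 6 h later the second of PBS or of 10 mg/kg dexamethasone (DEX, a synthetic glucocorticoid). Livers were collected 2 h after the second injection, 8 h after the first. The groups were NaCl/PBS, NaCl/DEX, FeSO4/PBS and FeSO4/DEX. The dose of FeSO4 is an acute overload that the study used as a model of lethal shock, and whole liver was sequenced, so that the counts mix hepatocytes with endothelial, stellate and immune cells.

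Hepcidin is a peptide hormone of hepatocytes that binds the iron exporter ferroportin and causes its degradation, which keeps iron in storing cells and out of the blood. When iron is abundant, liver sinusoidal endothelial cells release BMP6 and BMP2, which bind BMP receptors and the co-receptor hemojuvelin on hepatocytes. Phosphorylated SMAD proteins then enter the nucleus and activate hepcidin together with Id1, Atoh8, Smad6 and Smad7, and the products of Smad6 and Smad7 restrain the signal in turn. Transferrin receptor TFR2 with HFE reports the iron load of transferrin, the protease TMPRSS6 restrains the pathway by cleaving hemojuvelin, and interleukin-6 gives a second input to hepcidin through STAT3. Mice have a pair of hepcidin genes, of which Hamp encodes the iron-regulating hormone.

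Both inputs have known short motifs in the hepcidin promoter, so the 250 bases before the RefSeq start of each paralog are shown first. They are RefSeq sequences of build GRCm38.p6, on the minus strand, at chr7:30944030-30944279 for Hamp and chr7:30924182-30924431 for Hamp2. Capitals mark the matches in Hamp to the BMP-responsive core GGCGCC and to the STAT motif TTCNNNGAA, and the bases of Hamp2 aligned with them.
Hamp: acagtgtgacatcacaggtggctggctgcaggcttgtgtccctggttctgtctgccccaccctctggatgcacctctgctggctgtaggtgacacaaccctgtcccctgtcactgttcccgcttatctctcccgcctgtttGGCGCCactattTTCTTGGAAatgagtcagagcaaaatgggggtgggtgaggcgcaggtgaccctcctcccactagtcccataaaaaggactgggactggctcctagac
Hamp2: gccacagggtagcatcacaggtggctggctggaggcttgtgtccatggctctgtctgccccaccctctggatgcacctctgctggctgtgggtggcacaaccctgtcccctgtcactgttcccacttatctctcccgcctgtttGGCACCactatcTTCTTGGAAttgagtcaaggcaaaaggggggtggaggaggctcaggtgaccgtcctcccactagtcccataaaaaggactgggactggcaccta
The pair aligned with 227 identical positions of 253, or 89.7%. The STAT motif stood in both promoters, 97 to 89 bases before the start of Hamp and 94 to 86 bases before that of Hamp2. The BMP-responsive core stood 109 to 104 bases before the start in Hamp and did not match in Hamp2, where the aligned bases differed by the substitution G145A (Hamp base first, positions counted from 1 at the 5′ end of the Hamp sequence shown). Of 32851 RefSeq promoter windows of this length, 9.59% held GGCGCC, 7.02% held TTCNNNGAA and 0.368% held both. Both motifs read the same on the opposite strand, and no match overlapped another. Among the members, Bmp2, Smad7, Id1 and Tmprss6 had no RefSeq promoter available and could not be searched. The other 6 could, and Hamp was the only one of these 6 with the core. Hamp and Hamp2 were the only ones with the STAT motif. GENCODE starts its main Hamp transcript further upstream than RefSeq, so the window depends on the annotation.

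On GRCm39, the build of the counts, GENCODE vM39 places Hamp (ENSMUSG00000050440) on chromosome 7 from 30641766 to 30643990 and Hamp2 (ENSMUSG00000056978) on chromosome 7 from 30621797 to 30624106, both on the minus strand. Since the paralogs are alike, reads could be shared. Compared over stretches of 100 bases, the length of a read, none of the 338 stretches of the Hamp2 transcript was identical to any stretch of Hamp. The nearest differed by 1 base, 144 differed by 1 or 2, and 194 by at least 3. How the aligner placed reads that differ by 1 or 2 bases was not tested, and Hamp and Hamp2 levels are uncertain to that extent.

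Totals per library lay between 16335651 and 23827340 counts on genes, with 17493 to 18579 genes detected. The 8 hepatocyte markers, such as albumin, were detected in all 12 libraries and summed to between 101000 and 154300 CPM (counts scaled to the TMM-adjusted library size). The libraries thus carried the markers of their tissue label. Within its group FeSO4/PBS mouse 1 stood apart, with a chi-square per gene of 89.5 and 71.4 against its group mates and 24 between those 2, so that results resting on it are also given without it. The hepatocyte sums were higher with FeSO4. They were 101000 to 118800 CPM in NaCl/PBS mice and 131000 to 149200 in FeSO4/PBS mice. With DEX they were 120800 to 137000 after NaCl and 147700 to 154300 after FeSO4. In FeSO4/PBS mice 5 of the 8 rose and 0 fell, where 27.2% of all tested genes were higher and 27.3% lower. Their part in the results for hepatocyte genes was not tested. Markers of other cell types moved with FeSO4 as well. Sinusoidal endothelial markers (10 genes) summed to 446.5 to 512.1 CPM in NaCl/PBS mice, 304.2 to 389.8 with FeSO4/PBS, 414.6 to 483.7 with NaCl/DEX and 245.9 to 442.6 with FeSO4/DEX, and 6 of the 10 fell and 1 rose in FeSO4/PBS mice. Kupffer cell markers (7 genes) went from 333 to 383.4 in NaCl/PBS mice to 177.6 to 209.2 in FeSO4/PBS mice, and neutrophil markers (7 genes) from 2.777 to 8.543 to 33.02 to 42.03. Of these, no marker was at 0 in every mouse of a group except 3 neutrophil markers, Ly6g, Camp and Ngp, in NaCl/DEX mice. Stellate cell markers (7 genes) ranged from 98.4 to 141.7 CPM and pancreatic acinar markers (6 genes, 4 of them at 0 in each group) from 5.279 to 13.38 over all libraries. In bulk samples, fewer cells of a type and less RNA per cell cannot be told apart.

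The levels of the 10 genes spanned a wide range. Per kilobase of exon, NaCl/PBS mice had 17520 ± 7246 normalized counts of Hamp (SD, n = 3) and 8960 ± 6174 of Hamp2, ranges that overlapped between the paralogs. The hepatocyte regulators Tmprss6, with 2257 ± 164 per kilobase, and Tfr2, with 1353 ± 64.1, came next and were well apart from each other. Far below lay Atoh8 with 109.7 ± 11.4 and Bmp2 with 108.9 ± 0.629, which did not differ beyond their spread, then Id1 with 74.8 ± 19.4. The lowest were Smad7 with 48.2 ± 2.90, Smad6 with 44.9 ± 8.03 and Bmp6 with 38.7 ± 3.94, neighbours whose spreads overlapped.

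**Figure D1:**
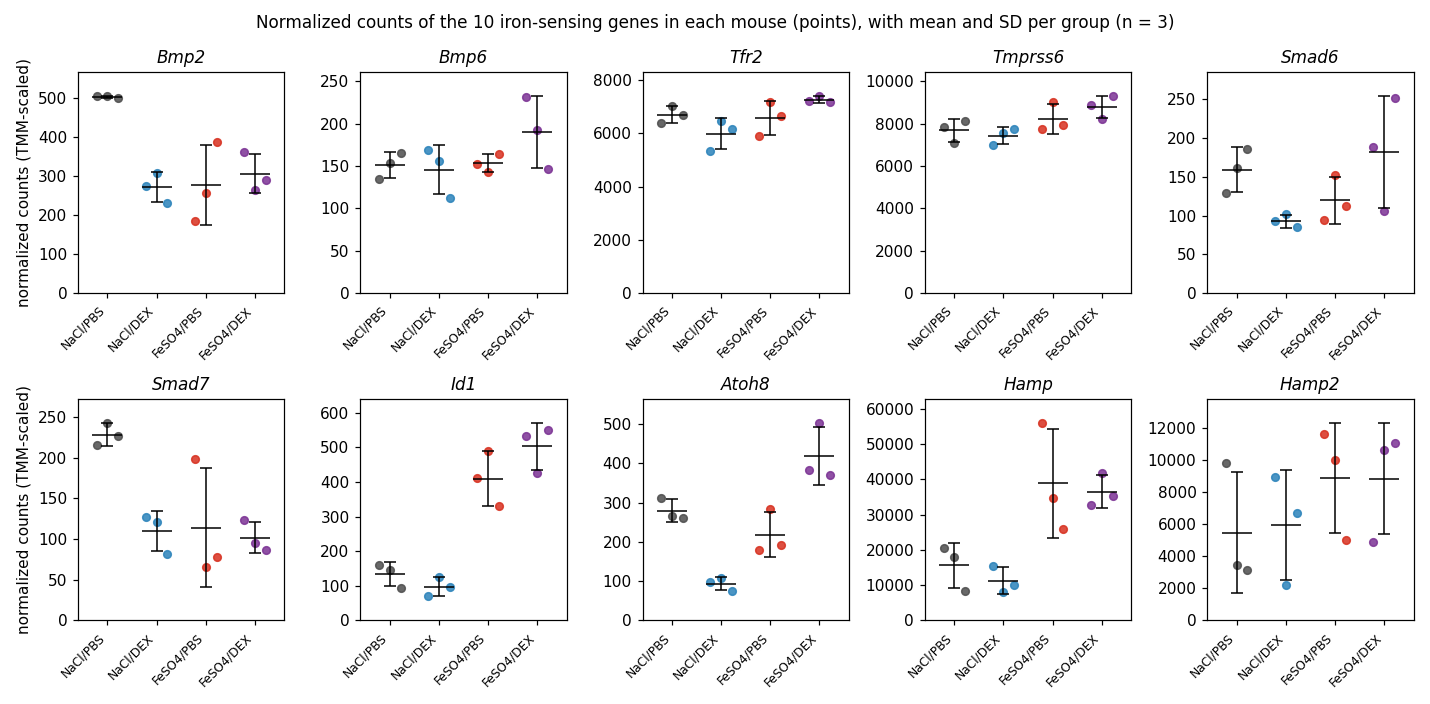
Normalized counts (TMM-scaled, linear axis from 0) of the 10 genes in each of the 12 mice, with the mean and SD of each group of 3. Hamp and Id1 lie higher in all FeSO4 mice than in all NaCl mice, while Atoh8 is lowest in the 3 NaCl/DEX mice (75.5 to 108) and highest in the 3 FeSO4/DEX mice (369.8 to 503).

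The first comparison asked what FeSO4 did without DEX, in FeSO4/PBS against NaCl/PBS mice. Hamp and Id1 were upregulated and Bmp2 and Smad7 downregulated, whereas the other 6 members did not pass the test. The calls were thus 2 higher and 2 lower at an edgeR FDR (Benjamini-Hochberg adjusted p over 13857 genes) of 0.05 or less, where 27.2% of all tested genes were higher and 27.3% lower. In the same 4 genes no FeSO4/PBS value lay within the range of the controls, and over all genes 29% were separated upward and 31% downward. The median log2 fold change (LFC) of the 10 members was -0.0046, against -0.015 for all tested genes. The share of members called in each direction was near that of all genes. With library size as the only scaling, which moved the median LFC of all genes to -0.34, Smad6 (-0.73), Atoh8 (-0.67) and Tfr2 (-0.34) were called lower too. That scaling called 2285 of all genes higher and 5829 lower with FeSO4 in PBS mice, 2151 and 4146 in DEX mice, 618 and 1776 with DEX alone, and 575 and 327 for the difference between the FeSO4 effects.

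The second comparison asked the same in mice that also received DEX, FeSO4/DEX against NaCl/DEX, which are other mice with their own controls. Here 4 members rose, namely Hamp, Id1, Atoh8 and Smad6, and 0 fell, where 22.4% of all tested genes were higher and 20.9% lower. In 6 members all FeSO4/DEX mice lay above all NaCl/DEX mice, and in 0 members below, where 28.8% of all genes were separated upward and 27.1% downward. The median LFC of the members was 0.48, against 0.01 for all genes. DEX by itself, NaCl/DEX against NaCl/PBS, lowered Atoh8, Bmp2 and Smad7 and raised 0 members, where 7.15% of all tested genes were lower and 6.5% higher. In 4 members, these 3 and Smad6, every NaCl/DEX mouse lay below every NaCl/PBS mouse, as in 20.3% of all genes. This comparison shares the NaCl/PBS mice with the first and the NaCl/DEX mice with the second.

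**Figure D2:**
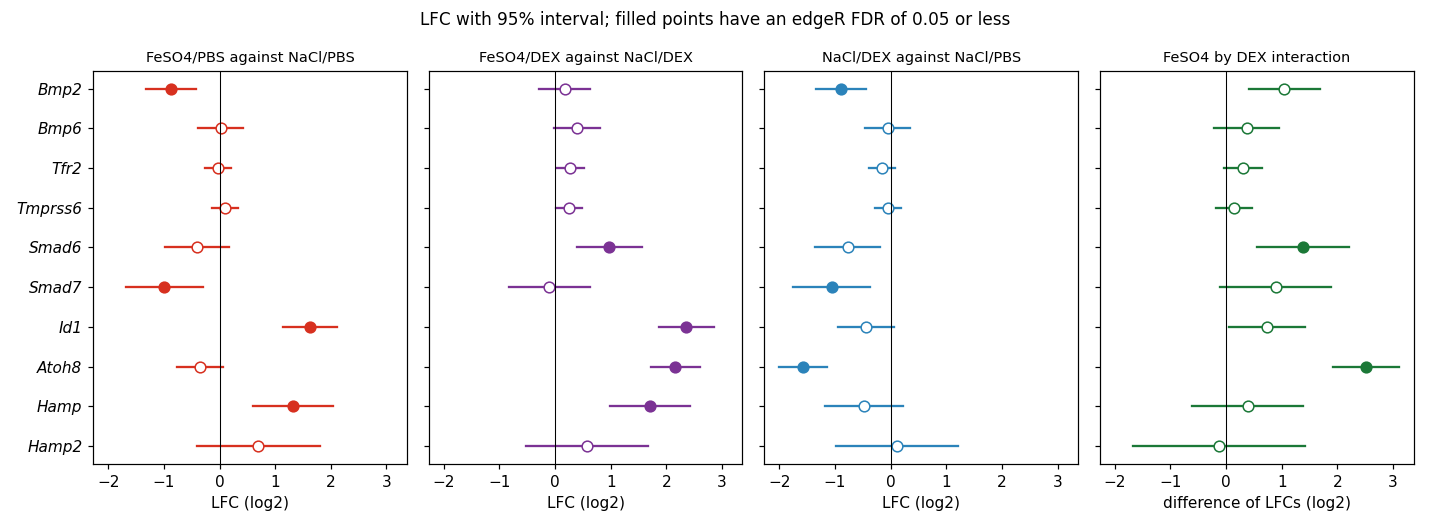
LFC (log2 scale) of the 10 members with 95% intervals in 3 comparisons, and the difference between the LFC by FeSO4 in DEX mice and that in PBS mice (the interaction). Filled points have an edgeR FDR of 0.05 or less, as for Atoh8, with 2.16 in DEX mice, -1.58 for DEX alone and 2.51 for the interaction.

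Among the ligands, Bmp2, which endothelial cells supply to hepatocytes (ENSMUSG00000027358, chromosome 2 from 133394079 to 133404816), had 506, 506 and 501 normalized counts in NaCl/PBS mice 1 to 3. It had 186, 258 and 388 in FeSO4/PBS mice, 275, 308 and 233 in NaCl/DEX mice, and 363, 265 and 291 in FeSO4/DEX mice. The NaCl/PBS mice were nearly alike and stood above each of the 9 treated mice. Bmp2 fell with FeSO4 (LFC -0.87, SE 0.21, edgeR FDR 0.00306) and with DEX alone (LFC -0.89, SE 0.21, edgeR FDR 0.0113), the latter call being lost without NaCl/DEX mouse 3 (LFC -0.79, edgeR FDR 0.0596). In mice that also received DEX, FeSO4 gave an LFC of 0.18 (edgeR FDR 0.538). The difference between the FeSO4 effects with and without DEX was 1.05 (SE 0.30) with an edgeR FDR of 0.0555, and reached 0.0281 under DESeq2, 0.0491 with scaling by library size alone, 3.8e-04 without a filter on low counts and 0.00689 without FeSO4/PBS mouse 3. Without FeSO4/PBS mouse 1 it was 0.79 (edgeR FDR 0.0712), and the LFC by FeSO4 in PBS mice was -0.64 (edgeR FDR 0.00895). The summed sinusoidal endothelial markers were lower as well in the FeSO4/PBS mice (304.2 to 389.8 CPM), whereas their sums in NaCl/DEX and NaCl/PBS mice overlapped. Single markers did move with DEX alone, which lowered 2 of the 10 and raised 1, where 7.15% and 6.5% of all tested genes did. Kdr (LFC -1.24, edgeR FDR 0.0129) and Gpr182 (LFC -0.94, edgeR FDR 0.00688) fell, and Lyve1 rose (LFC 1.83, edgeR FDR 1.17e-04). The part of these markers in the Bmp2 result was not tested.

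Bmp6, the main iron-regulated ligand (ENSMUSG00000039004, chromosome 13 from 38529065 to 38684280), was measured at 135, 153 and 166 normalized counts in NaCl/PBS mice and 152, 143 and 165 in FeSO4/PBS mice. Those groups overlapped almost completely, with an LFC of 0.02 and a 95% interval of -0.39 to 0.43. NaCl/DEX mice had 169, 156 and 113, and FeSO4/DEX mice 232, 193 and 146, where the highest counts came from FeSO4/DEX mouse 1. That LFC was 0.39 (SE 0.19) with an edgeR FDR of 0.118, and passed without FeSO4/DEX mouse 3 (LFC 0.55, edgeR FDR 0.0399). Exons of Txndc5 on the other strand overlap 226 bases of Bmp6 exons, and Txndc5 had 35744 counts in all. Whether the counting used strand is not given in the sources used here, so that reads of these genes may not be told apart.

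The sensor and regulator genes of hepatocytes varied least. Tfr2 (ENSMUSG00000029716, chromosome 5 from 137568087 to 137586343) had 6701 ± 317 normalized counts with NaCl/PBS, 6577 ± 628 with FeSO4/PBS, 5996 ± 593 with NaCl/DEX and 7264 ± 136 with FeSO4/DEX (SD, n = 3). Tmprss6 (ENSMUSG00000016942, chromosome 15 from 78323867 to 78352881) had 7687 ± 557, 8240 ± 699, 7434 ± 400 and 8802 ± 531 in the same order. All FeSO4/DEX mice exceeded all NaCl/DEX mice for both, by an LFC of 0.28 (edgeR FDR 0.0562) for Tfr2 and 0.24 (edgeR FDR 0.0836) for Tmprss6. The Tfr2 difference passed under DESeq2 (adjusted p = 0.043) and without NaCl/DEX mouse 2 (LFC 0.34, edgeR FDR 0.0493). Without DEX the 95% interval of the FeSO4 effect was -0.26 to 0.21 for Tfr2 and -0.13 to 0.33 for Tmprss6. The SD within groups on the log2 scale was 0.11 for Tfr2 and 0.10 for Tmprss6, smaller than in all but 8.31% and 6.05% of genes. Among genes of like mean level, 19.2% had a smaller SD than Tfr2 and 13.6% a smaller SD than Tmprss6.

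Smad6 and Smad7 encode inhibitory SMADs that act as feedback on BMP receptors. For Smad6 (ENSMUSG00000036867, chromosome 9 from 63860341 to 63929793) there were 130, 162 and 186 normalized counts in NaCl/PBS mice and 92.3, 102 and 84.6 in NaCl/DEX mice. FeSO4/PBS mice had 93.7, 153 and 112, and FeSO4/DEX mice 189, 106 and 251. The 3 NaCl/DEX mice were the lowest group, with no overlap with NaCl/PBS or FeSO4/DEX mice. Smad6 rose with FeSO4 in DEX mice (LFC 0.97, SE 0.27, edgeR FDR 0.0105), a call lost without FeSO4/DEX mouse 3 (LFC 0.68, edgeR FDR 0.0673). The LFC was -0.41 without DEX (edgeR FDR 0.214) and -0.77 for DEX alone (edgeR FDR 0.0779), which passed with scaling by library size alone (0.0369), without a filter on low counts (0.00536) and in a fit of those 6 libraries (0.0127).

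Smad7 (ENSMUSG00000025880, chromosome 18 from 75500374 to 75529006) followed another course. NaCl/PBS mice had 216, 243 and 227 normalized counts, FeSO4/PBS mice 199, 66.1 and 77.8, NaCl/DEX mice 127, 121 and 81.6, and FeSO4/DEX mice 124, 95.2 and 86.8. As with Bmp2, the NaCl/PBS mice lay above all 9 others, with FeSO4/PBS mouse 1 close to them. Smad7 fell with FeSO4 (LFC -0.99, SE 0.32, edgeR FDR 0.018), by an LFC of -1.67 (edgeR FDR 4.42e-05) without FeSO4/PBS mouse 1. The call was lost without FeSO4/PBS mouse 2 (LFC -0.71, edgeR FDR 0.073) or mouse 3 (LFC -0.79, edgeR FDR 0.0747). With DEX alone the LFC was -1.06 (SE 0.32, edgeR FDR 0.0429), and this call was lost whichever of the 6 mice was left out (LFC -1.17 to -0.88, edgeR FDR up to 0.166). FeSO4 in DEX mice gave -0.10 (edgeR FDR 0.833). The interaction was 0.89 (edgeR FDR 0.302), and 1.53 (edgeR FDR 0.00646) without FeSO4/PBS mouse 1.

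Id1, an inhibitor of bHLH transcription factors and a standard readout of BMP signaling (ENSMUSG00000042745, chromosome 2 from 152566218 to 152579544), rose with FeSO4 in both PBS and DEX mice. It had 160, 145 and 94.0 normalized counts in NaCl/PBS mice and 410, 488 and 332 in FeSO4/PBS mice. NaCl/DEX mice had 70.9, 125 and 96.7, and FeSO4/DEX mice 534, 426 and 551. All 6 FeSO4 mice were above all 6 NaCl mice. The LFC was 1.63 (SE 0.22, edgeR FDR 4.04e-05) in PBS mice and 2.36 (SE 0.23, edgeR FDR 3.15e-06) in DEX mice. The PBS and DEX values differed by 0.74 (SE 0.32, edgeR FDR 0.209), and DEX alone gave -0.44 (edgeR FDR 0.257).

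Atoh8, a bHLH transcription factor that responds to iron through BMP signaling (ENSMUSG00000037621, chromosome 6 from 72183161 to 72212602), showed the largest dependence on DEX among the members. It had 313, 266 and 260 normalized counts in NaCl/PBS mice and 180, 284 and 191 in FeSO4/PBS mice. NaCl/DEX mice had 96.6, 108 and 75.5, and FeSO4/DEX mice 383, 503 and 370. The NaCl/DEX mice were thus below, and the FeSO4/DEX mice above, all other mice. DEX alone lowered Atoh8 (LFC -1.58, SE 0.20, edgeR FDR 1.26e-04), a change below that of all but 1.85% of genes. FeSO4 raised it in DEX mice (LFC 2.16, SE 0.20, edgeR FDR 2.13e-06) while its LFC without DEX was -0.35 (SE 0.19, edgeR FDR 0.134), which became -0.59 (edgeR FDR 0.0166) without FeSO4/PBS mouse 2.

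The test of that difference, the FeSO4 by DEX interaction, gave 2.51 for Atoh8 (SE 0.28, edgeR FDR 1.56e-04) and 1.38 for Smad6 (SE 0.38, edgeR FDR 0.0482). No other member was called, so 2 of 10 members had a larger LFC by FeSO4 in DEX mice and 0 a smaller one, where 2.99% and 3.2% of all tested genes did. The Atoh8 interaction stayed between 2.33 and 2.75 when any mouse was left out, and its rank was 98 from the top of 13857 genes. The Smad6 call held in 2 of 12 such fits (1.09 to 1.61, edgeR FDR up to 0.129), those without FeSO4/DEX mouse 2 or FeSO4/PBS mouse 2, and was lost with DESeq2 size factors (edgeR FDR 0.0545). Because the NaCl/DEX mice enter both the DEX effect and this test, a low level in them moves both.

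DEX given after FeSO4, FeSO4/DEX against FeSO4/PBS, called 0 of the 13857 genes in either direction by edgeR (0%), although 444 were higher and 456 lower at an unadjusted p below 0.05, DESeq2 called 5 and 6, and the edgeR fit that kept genes of low counts called 99 and 71. All members were among the uncalled. Atoh8 had the largest difference among them, an LFC of 0.93 (SE 0.19, edgeR FDR 0.407), with all FeSO4/DEX mice above all FeSO4/PBS mice, as in 4.45% of all genes, and 0 members were separated downward, as 4.85% of genes were. DESeq2 called it (adjusted p = 0.0199), as did the fit without a filter on low counts (edgeR FDR 8.45e-05). The 95% interval of the DEX effect in FeSO4 mice was -0.79 to 0.62 for Hamp and -0.16 to 0.75 for Id1.

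Hamp, which encodes the iron-regulating hormone, had 20450, 18050 and 8276 normalized counts in NaCl/PBS mice and 56030, 34720 and 25890 in FeSO4/PBS mice. NaCl/DEX mice had 15440, 8068 and 10100, and FeSO4/DEX mice 32640, 41790 and 35230. The lowest FeSO4 mouse exceeded the highest NaCl mouse, although mice within a group differed by more than a factor of 2 in both PBS groups. Hamp rose with FeSO4 to 2.49 times the NaCl/PBS level (LFC 1.32, SE 0.33, edgeR FDR 0.0042), and by 0.96 without FeSO4/PBS mouse 1 (edgeR FDR 0.021). In DEX mice the LFC was 1.71 (SE 0.34, edgeR FDR 0.00104). These LFCs differed by 0.39 (SE 0.46, edgeR FDR 0.693), and the 95% interval of that difference, -0.61 to 1.39, holds changes of either sign. DEX alone gave -0.48 (SE 0.33, edgeR FDR 0.394). Without a filter on low counts it passed with an LFC of -0.47 and a smaller SE of 0.145 (edgeR FDR 0.0165).

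Hamp2 was more variable. NaCl/PBS mice had 9812, 3435 and 3151 normalized counts, NaCl/DEX mice 8960, 2202 and 6693, FeSO4/PBS mice 11590, 10010 and 5031, and FeSO4/DEX mice 4876, 10580 and 11050. Every pair of groups overlapped. The LFC by FeSO4 was 0.70 (SE 0.51, edgeR FDR 0.266) in PBS mice and 0.57 (SE 0.51, edgeR FDR 0.394) in DEX mice, with 95% intervals of -0.40 to 1.80 and -0.53 to 1.67. The first of these holds the Hamp LFC of 1.32, and the second ends just below the Hamp LFC of 1.71. Without NaCl/PBS mouse 1 the LFC of Hamp2 in PBS mice was 1.43 (edgeR FDR 0.033). Its LFCs in PBS and DEX mice both passed without a filter on low counts (edgeR FDR 1.05e-05 and 0.00103). There the LFCs were 0.69 and 0.55, no larger than in the fit reported, but the SE was 0.144 in place of 0.51. These calls of Hamp2 thus came with a smaller SE, while the groups still overlapped. The SD within groups was 0.84 on the log2 scale, larger than in 97.5% of genes, and 0.52 for Hamp, larger than in 84.6%. Across the 12 libraries the paralogs had a Pearson r of 0.713, and 0.731 after subtraction of the group means, as a description of libraries that share their depth and possibly reads.

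Hamp2 made up 32.4%, 16% and 27.6% of the Hamp and Hamp2 counts in NaCl/PBS mice and 36.7%, 21.4% and 39.9% in NaCl/DEX mice. In FeSO4/PBS mice the share was 17.1%, 22.4% and 16.3%, and in FeSO4/DEX mice 13%, 20.2% and 23.9%. Of the NaCl values 4 lay above all FeSO4 values, and mouse 2 of each NaCl group lay among the FeSO4 mice. The mean share was 10.2 percentage points lower with FeSO4 (two-sided exact permutation test within PBS and DEX mice, p = 0.045, 400 permutations). Leaving out any mouse other than mouse 2 of NaCl/PBS, NaCl/DEX or FeSO4/PBS took p of this test above the threshold (0.06 to 0.095, difference -11.4 to -8.39). The call thus needs each of those 9 mice. Fewer mice also leave fewer permutations. Without FeSO4/DEX mouse 2 or 3 the call was lost although the difference was no smaller (-10.5 and -11.4). Summed to 1 gene, Hamp and Hamp2 rose with FeSO4 by an LFC of 1.18 (edgeR FDR 0.0129) in PBS mice and 1.40 (edgeR FDR 0.00639) in DEX mice.

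**Figure D3:**
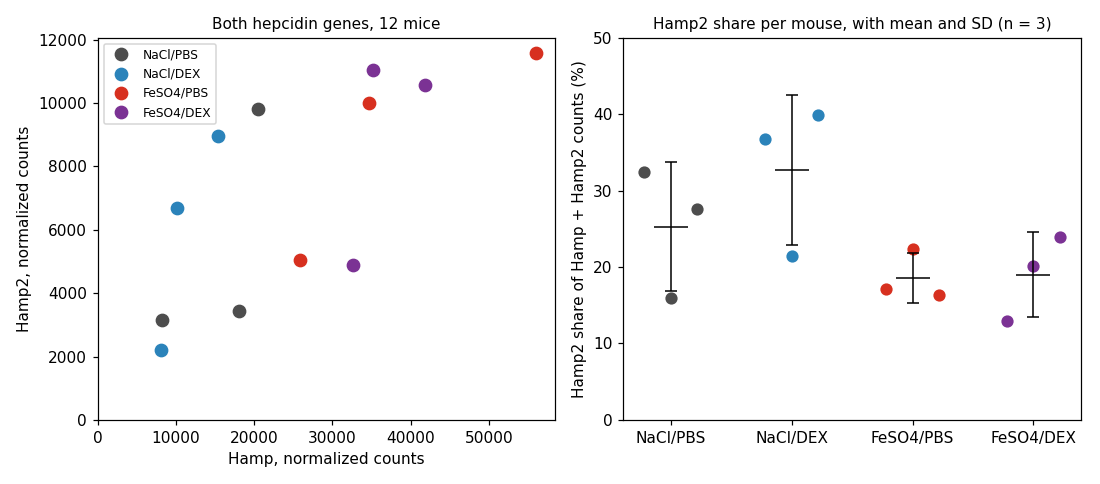
Left, normalized counts of Hamp (horizontal) and Hamp2 (vertical) in the 12 mice, coloured by group. Right, the percentage of Hamp plus Hamp2 counts on Hamp2 in each mouse with the mean and SD of 3 mice, from 25.3 ± 8.44 in NaCl/PBS and 32.7 ± 9.85 in NaCl/DEX to 18.6 ± 3.3 with FeSO4/PBS and 19 ± 5.54 with FeSO4/DEX.

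Of 58 further genes of the pathway, 53 had enough counts to be tested and Nog, Grem1, Erfe, Dlx1 and Msx2 did not. With FeSO4 alone 18 of the 53 rose and 12 fell, with a median LFC of 0.05, and in DEX mice 20 rose and 7 fell. DEX alone raised 7 and lowered 13, the interaction called 8 higher and 3 lower, and DEX after FeSO4 called 0. With 1 mouse left out, DEX alone raised 4 to 5 (4 without NaCl/PBS mouse 3) and lowered 7 to 11 (7 without NaCl/DEX mouse 3). The interaction then called 4 to 7 higher (4 without NaCl/DEX mouse 3, and 5 without NaCl/DEX mouse 1 or FeSO4/DEX mouse 2 or 3) and 1 to 4 lower (1 without NaCl/PBS mouse 3). With scaling by library size alone 22 fell with FeSO4 in PBS mice and 13 in DEX mice. The counts of all genes with that scaling are given above. In the fit reported, 27.2% of all tested genes were higher and 27.3% lower with FeSO4 alone, and 22.4% and 20.9% in DEX mice. For DEX alone these shares were 6.5% and 7.15%, and for the interaction 2.99% and 3.2%. The same shares apply to the counts of each list below.

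Of the 4 other BMP target genes tested, 3 rose with FeSO4, fell with DEX and had a positive interaction, namely Id2, Id3 and Id4, relatives of Id1, while Gata2 was not called in any. The choice to name Id4 and Gata2 was made with their values known. Id2 had 1538, 2656 and 1353 normalized counts in NaCl/PBS mice and 8934, 6785 and 6690 in FeSO4/PBS mice. With DEX they were 236, 229 and 286 after NaCl and 5793, 7550 and 6132 after FeSO4. The NaCl/DEX mice were far below the rest and both FeSO4 groups far above. Its LFC was 2.02 by FeSO4, -2.88 by DEX alone and 4.70 by FeSO4 in DEX mice, with an interaction of 2.68 (SE 0.31, edgeR FDR 2.33e-04). The interaction was 1.69 for Id3 (edgeR FDR 0.00204) and 3.01 for Id4 (edgeR FDR 0.00292). The Id4 value rests on only 3, 7 and 3 raw counts in NaCl/DEX mice 1 to 3, so its size is uncertain. In all 3 the FeSO4/DEX level was near the FeSO4/PBS level, with LFCs between them of -0.20, -0.27 and -0.28 that were not called. All members but Hamp2 (-0.13) had interactions of the same sign, called in the fit reported for Atoh8 and Smad6 only. Those of Bmp2 (1.05) and Smad7 (0.89) were larger than that of Id1 (0.74).

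**Figure D4:**
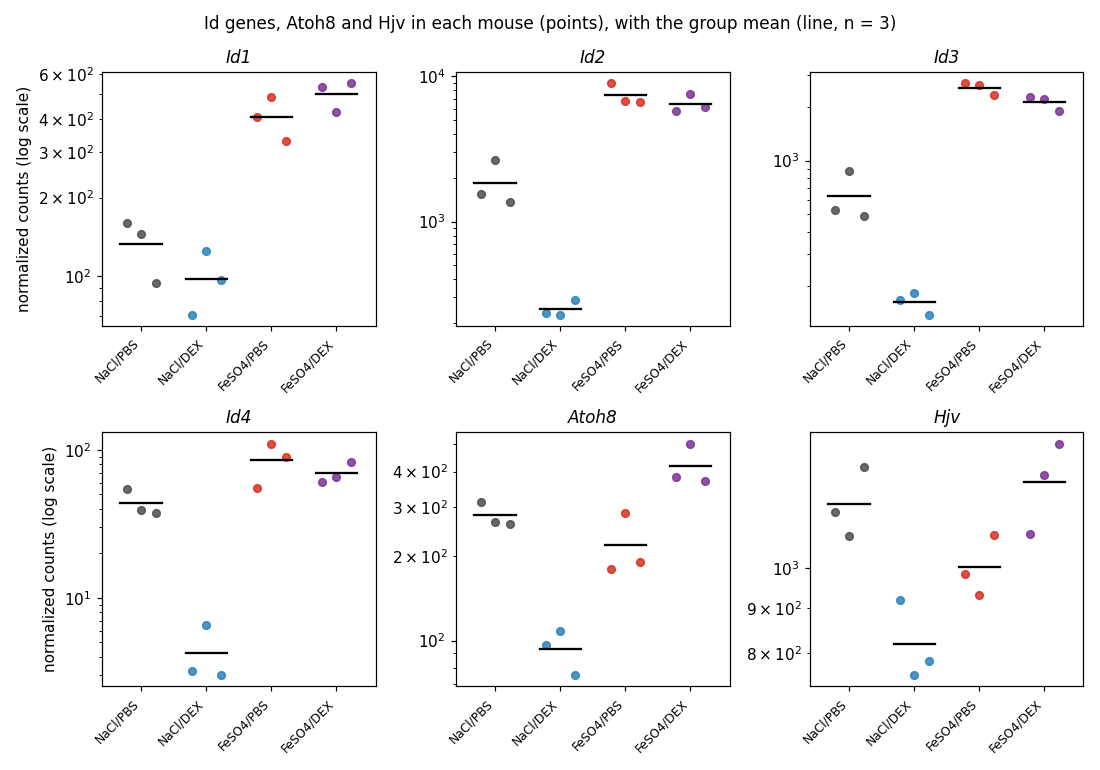
Normalized counts (log axis, scaled to each gene) of the 4 Id genes, Atoh8 and Hjv in each mouse, with lines at the means of 3 mice. The NaCl/DEX mice are lowest for Id2 (229 to 286), Id3, Id4, Atoh8 and Hjv, and overlap the NaCl/PBS mice for Id1.

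Of the 9 other BMP and activin ligands 2 rose and 1 fell with FeSO4, where 27.2% and 27.3% of all tested genes did. Gdf15, a stress-induced cytokine, had an LFC of 5.11 (edgeR FDR 1.37e-06), and Inhbb, which encodes the subunit of activin B, rose from 16.5, 108 and 27.9 normalized counts to 771, 751 and 894 (LFC 4.03, SE 0.49, edgeR FDR 1.37e-05). Inhba, which encodes the subunit of activin A, fell by 2.59 on the log2 scale. Activin B can signal through the same SMADs as BMPs, and in DEX mice Inhbb had an LFC of 2.96 (edgeR FDR 1.68e-04).

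Among the 9 receptors and co-receptors 0 rose and 3 fell with FeSO4, where 27.2% and 27.3% of all tested genes did. Acvr2b, an activin and BMP receptor, had an LFC of -1.85 (edgeR FDR 1.08e-04), and Eng, an endothelial co-receptor, -0.32 (edgeR FDR 0.0412). Hjv, the hemojuvelin gene, had 1159, 1087 and 1303 normalized counts in NaCl/PBS mice and 984, 932 and 1090 in FeSO4/PBS mice. With DEX they were 921, 756 and 784 after NaCl and 1095, 1276 and 1386 after FeSO4. Its order of groups was that of Atoh8, with the NaCl/DEX mice below all others. Hjv fell with DEX (LFC -0.53, edgeR FDR 0.0102), rose with FeSO4 in DEX mice (LFC 0.61, edgeR FDR 0.00117) and had an LFC of -0.24 in PBS mice (edgeR FDR 0.11). Its interaction was 0.85 (SE 0.17, edgeR FDR 0.00975).

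Of the 6 SMAD mediators 1 rose and 3 fell with FeSO4, where 27.2% and 27.3% of all tested genes did. Smad1, which carries BMP signals, had 248, 251 and 256 normalized counts in NaCl/PBS mice and 993, 952 and 934 after FeSO4, which is an LFC of 1.93 (SE 0.14, edgeR FDR 1.18e-07), and 1.62 in DEX mice. Smad9, another of that class, fell by 1.64 on the log2 scale (edgeR FDR 3.4e-04). Smad3 and Smad2, which carry TGF-beta and activin signals, fell by 1.15 and 0.84.

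Of 11 antagonists and inhibitors tested 4 rose and 3 fell with FeSO4, where 27.2% and 27.3% of all tested genes did. Chrd, a secreted BMP antagonist, fell by 1.20 on the log2 scale, whereas Fst, which binds activins, and Skil, a SMAD co-repressor, rose by 1.92 and 1.40. In transferrin sensing 3 of 4 genes rose with FeSO4, namely Hfe by 0.70 (edgeR FDR 4.27e-04), the transferrin receptor gene Tfrc by 1.17 (edgeR FDR 0.0012) and B2m, the partner of HFE, by 0.40. Tfrc was also raised by DEX alone (LFC 1.73, edgeR FDR 3.46e-04), its LFC by FeSO4 in DEX mice was -0.36 (edgeR FDR 0.252), and its interaction was -1.53 (edgeR FDR 0.0172). Hfe, unlike Tfr2, was also called in DEX mice (LFC 0.73, edgeR FDR 4.14e-04), but whether the changes of the sensors differ from each other was not tested.

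Of 9 genes of the inflammatory input to hepcidin 5 rose and 1 fell with FeSO4, where 27.2% and 27.3% of all tested genes did. In DEX mice 8 rose and 1 fell, where 22.4% and 20.9% of all tested genes did. Socs3, a target and inhibitor of STAT3, had 194, 942 and 239 normalized counts in NaCl/PBS mice and 4442, 4277 and 3732 in FeSO4/PBS mice (LFC 3.19, SE 0.48, edgeR FDR 7.83e-05). DEX alone lowered it to 39.7, 73.3 and 49.3 (LFC -3.06, edgeR FDR 0.00139), and its interaction was 2.82 (edgeR FDR 0.0255). Stat3 rose by 1.39, and Creb3l3 and Hnf4a, hepatocyte transcription factors, rose by 1.21 and 0.98. Slc40a1, which encodes ferroportin, the target of hepcidin, went the other way from Hamp, with 3575, 3503 and 4061 normalized counts in NaCl/PBS mice and 1032, 844 and 1025 in FeSO4/PBS mice (LFC -1.94, SE 0.14, edgeR FDR 1.18e-07). In DEX mice it fell by 2.20. Kupffer cells also express ferroportin, and 6 of 7 Kupffer markers fell in FeSO4/PBS mice, a part that was not tested.

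The genes whose log2 CPM values were most like those of Hamp over the 12 libraries, among 11473 genes with a mean of at least 1 CPM, were Bin3, Vps16, Slc25a28, Zfp598 and Retnlg, with Pearson r of 0.96 to 0.943. Slc25a28, a mitochondrial iron importer, went from 359 normalized counts in NaCl/PBS to 1244 in FeSO4/PBS mice, and Retnlg is one of the neutrophil markers. For Id1 they were Krt18, Lmcd1, Ccdc6, Chac1 and Gadd45a, with r of 0.976 to 0.969. After subtraction of the group means r was 0.745 to 0.856 for the genes like Hamp and 0.387 to 0.848 for those like Id1. These correlations describe 12 libraries that share treatments and depth.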

How the data were processed

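Livers of 12 mice were sequenced single-end after stranded mRNA library preparation. The authors mapped reads to mm39 with STAR 2.7.10b, and deposited counts per gene are whole numbers without normalization, for 55414 genes, of which 30401 had no count. Whether these counts used strand is not given in the sources used here. Symbols came from GENCODE vM39. From the counts, edgeR 4.0.16 (R 4.3.3, limma 3.58.1) kept 13857 genes with its filter on low counts, computed TMM factors and fitted the 4 group means in 1 quasi-likelihood model, without a replicate block. Calls were made at 0.05 after Benjamini-Hochberg adjustment over all tested genes. Normalized counts were scaled by TMM to the mean effective size of 19810818. LFCs used a prior count of 0.125, and log2 CPM a prior count of 2. Intervals are at 95%. The fits were tested on simulated counts.

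The members and lists were chosen with earlier results of these data known. The text names all members, genes of the pathway lists called in FeSO4/PBS mice with a mean of at least 100 normalized counts in the higher group (up to 4 a list), and Hjv, Hfe, Slc40a1 and Socs3, and 1 gene that the rule names is not reported here. Promoters are RefSeq windows of GRCm38.p6 and were aligned with Biopython 1.88. Alternatives were DESeq2 1.42.0, other scalings and filters, a minimum LFC of 1, a replicate block, fits restricted to the compared libraries, summed paralogs and each mouse left out. The depth was 16335651 to 23827340 counts with 3 mice in a group, which limits the precision. The edgeR p-values set differences of group means against a spread between livers that was estimated from all 12 libraries.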

Additional observations from a re-analysis of the deposited data

Results flagged for a closer look

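The FeSO4 effect differed between DEX and PBS mice by the interaction test for Atoh8, with 2.51 on the log2 scale (SE 0.28, edgeR FDR 1.56e-04), and for Smad6, with 1.38 (SE 0.38, edgeR FDR 0.0482). For Atoh8 the LFC by FeSO4 was 2.16 in DEX mice and -0.35 in PBS mice. For Smad6 it was 0.97 and -0.41. The Smad6 call was lost in 10 of 12 fits with 1 mouse left out.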

How the results depend on the processing

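For the members, 662 of 705 single-gene alternatives stayed on their side of the threshold, 30 of them with another sign and no call in either fit, 21 gained a call, 22 lost one and 0 called values reversed. The number of members lower with FeSO4 in PBS mice, 2 in the fit reported, was 5 with scaling by library size alone, where the median LFC of all genes was -0.34, 0 with a minimum LFC of 1, and 1 to 2 with 1 mouse left out. Members lower with DEX alone, 3 as reported, were 5 without a filter on low counts and 1 to 2 with 1 mouse left out. Members higher with DEX after FeSO4, 0 as reported, were 1 under DESeq2 and 1 without a filter. Members with a larger FeSO4 effect in DEX mice, 2 as reported, were 3 under DESeq2, 3 with scaling by library size alone, 3 without a filter, 1 with DESeq2 size factors and 1 to 2 with 1 mouse left out. Apart from fewer mice and the LFC minimum, the cause was not tested.

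Deviations from the group means had an r of -0.09 to 0.13 over genes between same-numbered mice. Between NaCl/PBS and NaCl/DEX mice 1 to 3 this r was 0.129, 0.109 and 0.052. Mice of unlike number in those groups had -0.151 to 0.0302. Whether the numbers pair the NaCl mice was not tested. With the replicate block, 49 of 50 member tests kept their call or lack of one, and 1 member had a larger FeSO4 effect in DEX mice, the Smad6 call being lost (1.36, edgeR FDR 0.0723). The Hamp2 share differed by -10.2 points with p = 0.0938 by sign flips within the replicate block, by -13 to -8.39 points with 1 mouse left out, and by -0.79 as a log2 ratio (exact permutation p = 0.05). A fit of the compared libraries alone was not run for the interaction. With 3 mice per group and wide spread within groups, changes of Hamp2 inside the intervals given could not be detected.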
